A study of Mus musculus with 11 samples.

Results

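A set of 10 genes of the neuroendocrine secretory pathway were followed through drug treatment of mouse neuroblastomas and found by symbol among the 24411 genes of the deposited table. They were the neuropeptide precursors Npy, Vip, Gal and Sst, the granin genes Chga, Chgb, Scg2 and Scg3, the granin-associated chaperone gene Scg5, and Syt1, a calcium sensor for vesicle release. All 10 were found, and 9 reached 1 TPM in at least 2 libraries and were tested. Sst did not reach it. TPM are transcript abundances corrected for length that sum to 1000000 in each library.

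The spontaneous neuroblastomas arose in homozygous Th-MYCN mice, whose MYCN transgene is driven by the tyrosine hydroxylase promoter. Every group, vehicle included, carried the transgene. Mice with tumours of about 5 mm received a single dose. There were 3 mice on intraperitoneal vehicle, 3 on intravenous CBL0137 (40 mg/kg), 2 on intraperitoneal panobinostat (5 mg/kg; replicates 1 and 3) and 3 on both drugs, called the combination. Tumours were taken 16 h later, and total RNA of whole tumour was sequenced. Strain background, sex and age are not given in the sources used here, and panobinostat replicate 2 was not analysed here. CBL0137 is a curaxin, a DNA-binding compound that traps the histone chaperone FACT on chromatin, and panobinostat is an inhibitor of histone deacetylases.

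Sympathetic neurons, adrenal chromaffin cells and the neuroblastomas that arise from this lineage store peptides and catecholamines in dense-core secretory granules. Granins condense with peptide precursors in the trans-Golgi network and help to form the granule, prohormone convertases cut the precursors inside it, and calcium-sensing synaptotagmins with the SNARE proteins drive its fusion with the plasma membrane. The peptides then act on G protein-coupled receptors of the same or other cells. Chromogranin A is a serum and tissue marker of neuroendocrine tumours, and neuropeptide Y and vasoactive intestinal peptide have long been studied as products of neuroblastoma.

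Depth is unknown, since TPM keep no read counts, and between 12856 and 14747 genes reached 1 TPM per library. Combination replicate 2 stood apart from the other 10 libraries. Its summed level of 12 adrenal cortex markers was 7714 TPM, against 44.8 to 102 TPM elsewhere, with Star, the cholesterol transporter of steroid synthesis, at 1362 TPM against 3.35 to 11.7. Pnmt, the adrenaline-making enzyme of chromaffin cells, was 56.9 TPM in it and 1.06 to 12.7 TPM in the others. Member results against vehicle in the combination are therefore given with and without this library, and each pathway list's count likewise. Skeletal muscle markers summed to 10650 TPM in panobinostat replicate 3, 825 TPM in combination replicate 1 and 685 TPM in CBL0137 replicate 2, against 7.58 to 76.2 TPM elsewhere. Kidney markers summed to 454 TPM in vehicle replicate 2 (9.67 to 120 TPM elsewhere) and B cell markers to 160 TPM in CBL0137 replicate 3 (1.70 to 66.6 TPM elsewhere). All 12 noradrenergic neuroblast markers had a vehicle mean of at least 1 TPM, and their sum was 918 to 1133 TPM in vehicle. Quantile normalization moved the median log2 change of all genes from 0.08 to -0.26 for the combination and from 0.10 to -0.18 for panobinostat, and the higher share of the calls from 54.4 to 38.4% and from 60.2 to 38.2%.

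Chgb and Chga had the highest levels of the 10 genes in vehicle tumours. Chgb stood at 248 ± 35.7 TPM (SD, n = 3), Chga at 94.8 ± 6.16 TPM, Scg5 at 74.1 ± 5.32 TPM and Scg3 at 73.6 ± 7.60 TPM, the last pair with overlapping libraries. Syt1 followed at 24.9 ± 3.09 TPM and Npy at 11.3 ± 2.03 TPM. Gal at 3.28 ± 1.03 TPM and Scg2 at 2.19 ± 1.14 TPM overlapped, and Vip at 0.103 ± 0.117 TPM overlapped with Sst, which was listed at 0 in the 3 vehicle libraries. Scg2 thus lay far below the other granin genes, and the 4 peptide precursors lay below Chgb, Chga, Scg5, Scg3 and Syt1. In the combination the order was Chgb, Chga, Npy, Scg2, Scg3, Scg5, Gal, Syt1, Vip and Sst, and each of the first 8 overlapped with its neighbour. Chga and Chgb together made up 60.3 to 79.0% of the members' TPM over the 11 libraries.

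Short stretches of promoter are shown for 5 of the 6 members that carry TGACGTCA, the palindromic cAMP response element, or its half-site TGACG within the 100 bases before the transcription start, since this element is the classical control sequence of peptide and granin genes. Sequences are from RefSeq on GRCm38.p6, 5′ to 3′ on the gene's strand, with the element in capitals. The table held promoters of all 10 members. The complete element starts at base -48 from the start in Sst, -72 in Chgb and -68 in Scg2, and the half-site at -79 in Vip, -44 in Chga and -30 in Scg3, whose stretch is not shown. For Sst and Scg3 the start used lies inside the gene span given below and is not the outer end of that span.
Sst (chr16:23890875-23890904, minus strand): cgcctccttggcTGACGTCAgagagagagt
Chgb (chr2:132781542-132781616, plus strand): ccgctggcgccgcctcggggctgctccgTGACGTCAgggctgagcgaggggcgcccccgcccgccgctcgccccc
Scg2 (chr1:79440052-79440126, minus strand): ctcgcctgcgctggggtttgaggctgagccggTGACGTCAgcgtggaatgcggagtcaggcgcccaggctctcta
Chga (chr12:102554841-102554915, plus strand): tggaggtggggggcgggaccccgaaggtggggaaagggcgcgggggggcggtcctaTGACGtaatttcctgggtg
Vip (chr10:5639118-5639192, plus strand): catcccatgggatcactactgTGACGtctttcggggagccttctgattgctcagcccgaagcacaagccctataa
Among all 32851 RefSeq promoters, 1.15% held TGACGTCA in these 100 bases, and 10.5% held TGACG on either strand, a count that includes the complete element. Of the 10 members, 3 held the complete element and 6 held either form. A match is a description of the letters and no evidence that a factor binds there.

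Npy encodes neuropeptide Y, the peptide co-released with noradrenaline from sympathetic nerves (chr6:49822710-49829507, plus strand, GRCm38.p6). Its level was 10.5, 13.6 and 9.71 TPM in the vehicle libraries (replicates 1 to 3), 34.4, 38.9 and 61.2 TPM after CBL0137, 19.5 and 32.0 TPM after panobinostat (replicates 1 and 3), and 40.1, 187 and 56.0 TPM after the combination. Every treated library stood above every vehicle library, and combination replicate 2 was the highest of all. Npy rose in the combination by 2.65 ± 0.48 (log2(TPM + 1) change with its SE, limma, adjusted p = 0.000766). Without combination replicate 2 the rise was 1.99 (adjusted p = 0.000366).

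After CBL0137 Npy rose by 1.87 ± 0.48, with an adjusted p of 0.0498 in limma, just inside the threshold of 0.05. It was 1 of the 9 members called higher, and 0 were called lower, where 6.12% of all tested genes were called (4.99% higher and 1.13% lower). This call was lost when any vehicle or CBL0137 library, either panobinostat library or combination replicate 3 was left out of the shared fit (adjusted p up to 0.176). After panobinostat the Npy change was 1.10 ± 0.54 (adjusted p = 0.126), and it passed the test without combination replicate 2 (adjusted p = 0.0133). The combination stood 0.78 above CBL0137 (adjusted p = 0.195, 95% interval -0.30 to 1.85) and 1.55 above panobinostat (adjusted p = 0.0827, 0.35 to 2.75). These differences missed the threshold.

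**Figure D1:**
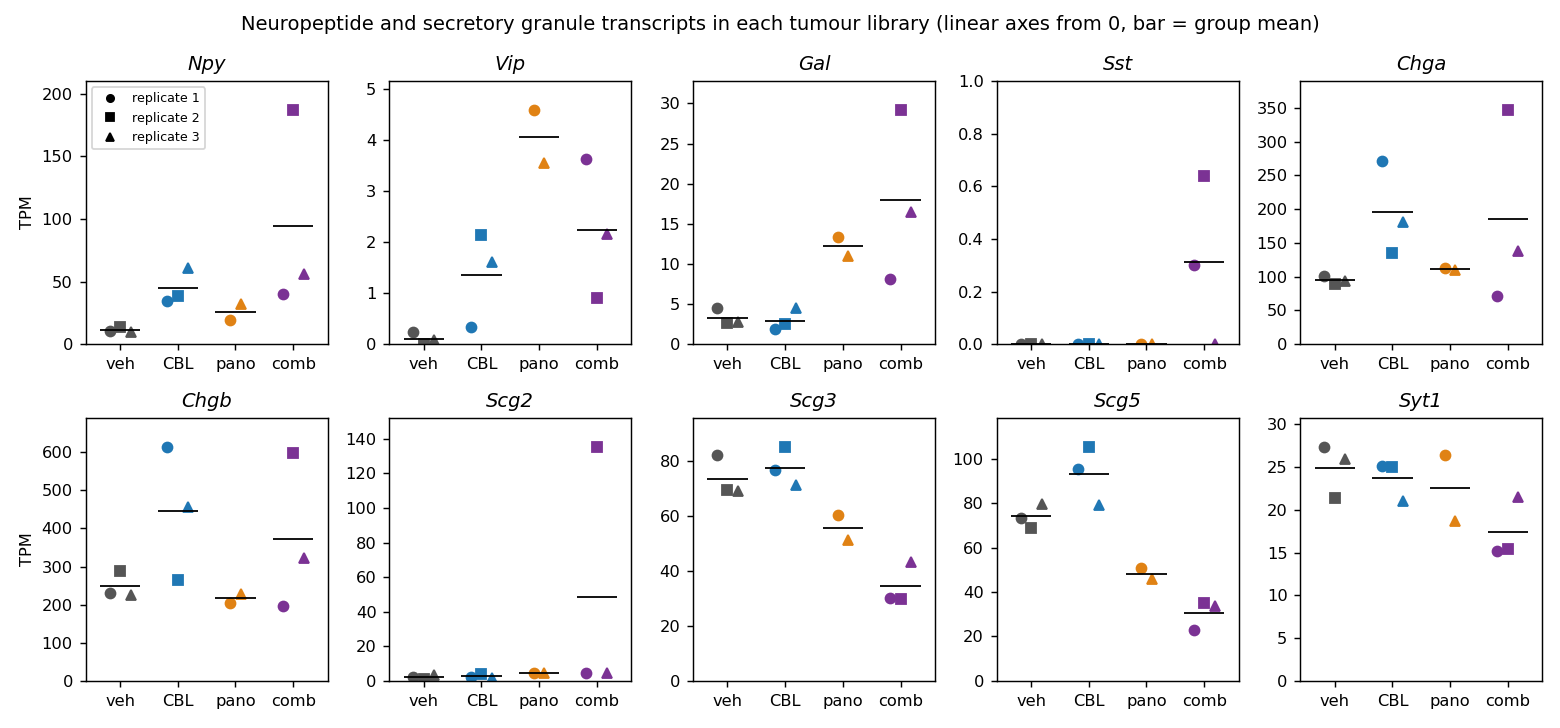
TPM of the 10 genes in each of the 11 libraries, on linear axes that start at 0. Columns are the groups, the circle, square and triangle mark replicates 1, 2 and 3, and the bar is the group mean. Npy lies higher in every treated library than in vehicle (9.71 to 13.6 TPM), Scg3 and Scg5 are lowest in the combination, and combination replicate 2 alone carries Scg2 at 135 TPM.

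Vip encodes vasoactive intestinal peptide, a vasodilator and neuromodulator (chr10:5639193-5647617, plus strand). Its level was 0.23, 0 and 0.08 TPM in vehicle, 0.34, 2.14 and 1.61 TPM after CBL0137, 4.58 and 3.54 TPM after panobinostat, and 3.63, 0.91 and 2.16 TPM after the combination. Vip was thus near 0 in vehicle and reached a few TPM in the treated tumours, with no overlap between vehicle and any treated group. It rose by 2.20 ± 0.42 after panobinostat (limma, adjusted p = 0.00289) and by 1.47 ± 0.37 after the combination (adjusted p = 0.00578), or 1.80 without combination replicate 2 (adjusted p = 0.00214). After CBL0137 the change was 1.02 ± 0.37 (adjusted p = 0.131). At these low levels the size depends on the pseudocount added to the TPM: with 0.1 or 5 in place of 1, the panobinostat value ran from 4.51 to 0.83 and the combination value from 3.50 to 0.49. Markers of cholinergic neurons, some of which also make this peptide, summed to 34.6 to 44.5 TPM in vehicle, 27.4 to 32.7 TPM after CBL0137, 54.0 to 56.0 TPM after panobinostat and 27.3 to 55.8 TPM after the combination. Slc10a4 made up most of each vehicle sum, at 30.6 to 38.7 TPM. It did not rise with panobinostat (31.2 to 32.8 TPM) or the combination (6.77 to 20.6 TPM). Prph was higher with panobinostat (15.75 to 18.09 TPM) and the combination (15.54 to 28.58 TPM) than with vehicle (1.0 to 4.06 TPM). Ache was likewise higher (4.16 to 4.62 and 3.59 to 4.66, against 0.94 to 1.63 TPM). So was Slc18a3 (1.07 to 1.76 and 0.67 to 1.54, against 0.05 to 0.09 TPM). Chat, the enzyme that makes acetylcholine, was at most 0.29 TPM in any library, and Slc5a7 at most 0.35 TPM. The part of cholinergic neurons in the Vip values was not tested.

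Gal encodes galanin, a peptide of sympathetic and sensory neurons that is raised after nerve injury (chr19:3409915-3414544, minus strand). Vehicle libraries held 4.47, 2.64 and 2.73 TPM and CBL0137 libraries 1.88, 2.47 and 4.49 TPM, against 13.3 and 11.03 TPM after panobinostat and 8.16, 29.1 and 16.4 TPM after the combination. Libraries that received panobinostat were all above those that did not. Gal rose by 1.64 ± 0.45 after panobinostat (limma, adjusted p = 0.015), a call lost without panobinostat replicate 1 or 3 (adjusted p = 0.0752 and 0.0552) and under quantile normalization (adjusted p = 0.0804). It rose by 2.01 ± 0.40 after the combination (adjusted p = 0.00137), and by 1.59 without combination replicate 2 (adjusted p = 0.00384). The change after CBL0137 was -0.15 ± 0.40 (adjusted p = 0.854), and the combination stood 2.15 ± 0.40 above CBL0137 (adjusted p = 0.00148).

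Sst encodes somatostatin, an inhibitor of hormone release (chr16:23889573-23891342, minus strand). It was listed at 0 in 9 of the 11 libraries, and at 0.30 and 0.64 TPM in combination replicates 1 and 2. It was too low to test, and without read counts the limit of detection is unknown. Among 9 markers of pancreatic endocrine cells, another source of somatostatin, Ins1, Ins2, Gcg, Ppy, Iapp and Pdx1 were at 0 in all 11 libraries.

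Chga and Chgb encode chromogranins A and B, the acidic core proteins of the granule (chr12:102554941-102565027 and chr2:132781642-132795079, both on the plus strand). Chga was 101, 88.9 and 94.3 TPM in vehicle, 272, 135 and 181 TPM after CBL0137, 112 and 110 TPM after panobinostat, and 71.3, 346 and 139 TPM after the combination. Chgb was 230, 289 and 225 TPM in vehicle, 614, 265 and 457 TPM after CBL0137, 204 and 229 TPM after panobinostat, and 196, 598 and 323 TPM after the combination. For both genes the vehicle and panobinostat libraries lay close together while the CBL0137 and combination libraries spread widely, with CBL0137 replicate 1 and combination replicate 2 at the top.

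Neither chromogranin passed the test in any comparison over the 11 libraries. Chga differed by 0.98 ± 0.46 after CBL0137 (limma, adjusted p = 0.224, 95% interval -0.04 to 2.01) although its 3 libraries all stood above vehicle, and Chgb by 0.77 ± 0.38 (adjusted p = 0.251). After the combination the values were 0.67 ± 0.46 for Chga (adjusted p = 0.225) and 0.44 ± 0.38 for Chgb (adjusted p = 0.33). Without combination replicate 1 the Chga change was 1.20 and passed the test (adjusted p = 0.0183). Without combination replicate 2 the values were 0.07 for Chga and 0.03 for Chgb, and Chga was then 0.91 lower than after CBL0137 alone (adjusted p = 0.0344). Adrenal cortex markers and Pnmt also stood high in combination replicate 2, and the part of adrenal tissue in these values was not tested.

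The chromogranins kept to each other across libraries. The ratio of Chgb to Chga was between 1.73 and 3.25, and the correlation of their log2 levels was r = 0.93 over the 11 libraries and 0.90 over the 10 without combination replicate 2. Libraries of a group share their treatment, so this describes the set and is not a test. Chgb was the gene with the highest r to Chga among all those tested with a mean of at least 5 TPM, followed by Gamt and Bad (r = 0.88 and 0.86), and Chga was the closest to Chgb, followed by Gata2, a transcription factor of the sympathetic lineage, and Ndufaf3 (0.90 and 0.85). The ratio of Npy to Chga, by contrast, was 0.103 to 0.153 in vehicle and 0.404 to 0.562 in the combination, combination replicate 2 included at 0.540.

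Scg2 encodes secretogranin II, the precursor of secretoneurin (chr1:79434366-79440026, minus strand). It was 2.40, 0.96 and 3.21 TPM in vehicle, 2.48, 4.25 and 1.70 TPM after CBL0137, 4.79 and 4.39 TPM after panobinostat, and 4.58, 135 and 4.85 TPM after the combination. Apart from combination replicate 2, all libraries lay below 5 TPM, far under its relatives Chga and Chgb, which lay at or above 71.3 TPM in every library. The change after the combination was 2.44 ± 1.01 (limma, adjusted p = 0.0552) and without that library 0.91 (adjusted p = 0.0516), neither past the threshold. The 3 genes nearest to Scg2 over the 11 libraries were Mgarp, Slc25a30 and Akr1cl, each with r = 0.96. Their highest values were 221, 130 and 254 TPM, and their medians 1.3, 20.7 and 0.73 TPM. Since Scg2 was high in combination replicate 2 alone, these r values rest largely on that library. For these genes r without it was not computed.

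Scg3 encodes secretogranin III, which binds chromogranin A and cholesterol in the granule membrane (chr9:75643366-75685959, minus strand). It was 82.4, 69.4 and 69.0 TPM in vehicle, 76.6, 85.1 and 71.1 TPM after CBL0137, 60.3 and 51.2 TPM after panobinostat, and 30.3, 30.0 and 43.1 TPM after the combination. All 3 combination libraries were below every other library, and combination replicate 2 lay with replicate 1 here. Scg3 fell by 1.09 ± 0.15 on the log2 scale after the combination (limma, adjusted p = 0.000139), and by 1.00 without combination replicate 2 (adjusted p = 0.000626). Changes after CBL0137 (0.08 ± 0.15, adjusted p = 0.789) and panobinostat (-0.39 ± 0.17, adjusted p = 0.0846) did not pass.

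Scg5 encodes 7B2, the chaperone that the prohormone convertase Pcsk2 needs for its activation (chr2:113776313-113829091, minus strand). It was 73.5, 69.1 and 79.7 TPM in vehicle, 95.3, 105 and 79.1 TPM after CBL0137, 51.0 and 45.7 TPM after panobinostat, and 22.9, 34.9 and 33.8 TPM after the combination. The groups that received panobinostat lay below vehicle without overlap, and the combination lay lowest. Scg5 fell by 1.27 ± 0.16 after the combination (limma, adjusted p = 9.17e-05), and by 1.38 without combination replicate 2 (adjusted p = 0.000172). It fell by 0.61 ± 0.18 after panobinostat (adjusted p = 0.0241), a call lost without vehicle replicate 1 or 3, without either panobinostat library (adjusted p up to 0.133) and under quantile normalization (0.0527). After CBL0137 the change was 0.32 ± 0.16 (adjusted p = 0.264), and Scg5 was 0.93 ± 0.18 higher after CBL0137 than after panobinostat (adjusted p = 0.0139), a call lost without CBL0137 replicate 1 or 2 or panobinostat replicate 3 (adjusted p up to 0.0907).

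Syt1 encodes synaptotagmin 1, the calcium sensor of fast vesicle fusion (chr10:108497650-109010980, minus strand). It was 27.4, 21.5 and 25.9 TPM in vehicle, 25.2, 25.0 and 21.1 TPM after CBL0137, 26.4 and 18.7 TPM after panobinostat, and 15.2, 15.5 and 21.6 TPM after the combination. The combination and vehicle libraries overlapped narrowly, at 21.6 and 21.5 TPM. Syt1 fell by 0.50 ± 0.18 after the combination (limma, adjusted p = 0.028), and this call was lost without vehicle replicate 1 or 3 or combination replicate 1 or 2 (adjusted p between 0.0806 and 0.095). The change without combination replicate 2 was -0.43 (adjusted p = 0.085). After CBL0137 and panobinostat it changed by -0.06 ± 0.18 and -0.15 ± 0.20 (adjusted p = 0.856 and 0.572).

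**Figure D2:**
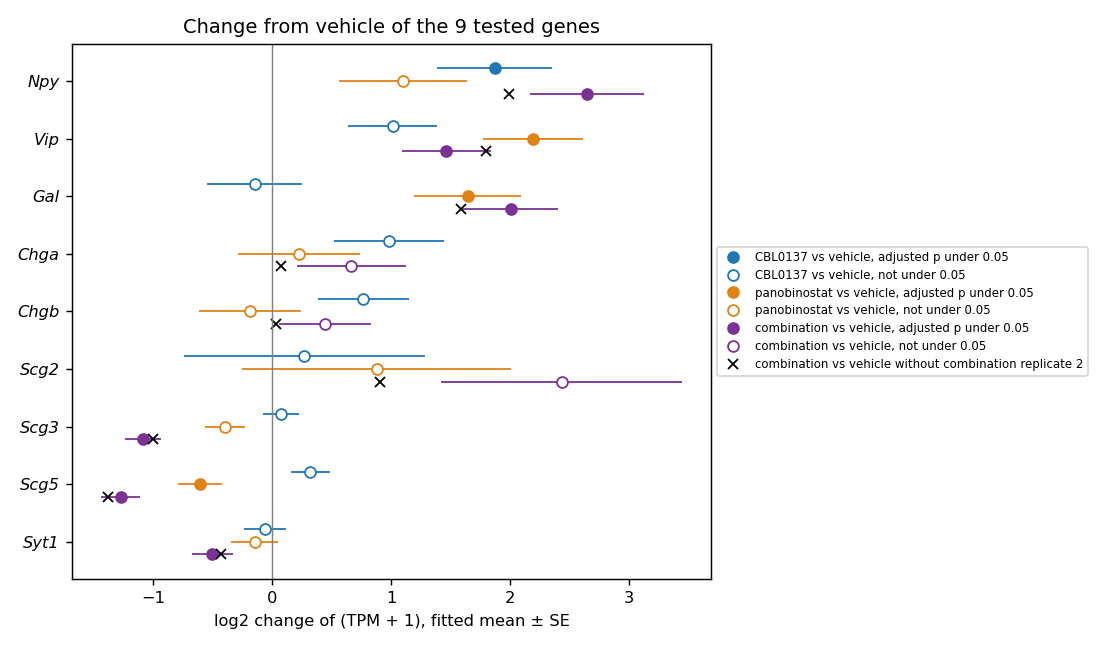
Change in log2(TPM + 1) against vehicle with its SE for the 9 tested genes after CBL0137, panobinostat and the combination. Filled points passed limma's test at an adjusted p of 0.05, and crosses give the combination without replicate 2. Npy, Vip and Gal lie to the right and Scg3 and Scg5 to the left of 0 in the combination with or without that library, while Chga, Chgb and Scg2 move towards 0 without it.

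Scg3, Scg5 and Syt1 followed one another closely. Over the 11 libraries r was 0.94 between Scg3 and Scg5, 0.87 between Scg3 and Syt1 and 0.77 between Scg5 and Syt1, and it was 0.97, 0.82 and 0.74 without combination replicate 2. Scg3 and Chga, both granins, had r = -0.10 (0.44 without that library). Nearest genes were ranked over tested genes that averaged 5 TPM or more, unnamed gene models left out. Those of Scg3 were Stmn4, a stathmin of neurons, Add2, an adducin of the membrane skeleton, and Hrk, a BH3-only death gene (r = 0.99, 0.99 and 0.99). Nearest to Scg5 were Pnmal1, Ccdc28b and Calm3 (0.99, 0.99 and 0.98), and nearest to Syt1 were Eef2, Zfp932 and Snrnp70 (0.98, 0.98 and 0.97). Gal ran against Scg5 with r = -0.80, and its nearest genes were Galnt10, Appl2 and Fam171a1 (0.99, 0.98 and 0.98). For Npy they were Ccdc23, Ddrgk1 and Atp6v1f (0.96, 0.95 and 0.95), and for Vip Tppp3, Thbs3 and Ccl11 (0.95, 0.94 and 0.92). These values describe libraries that share treatment and tissue makeup.

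After the combination 3 of the 9 tested members had risen (Npy, Vip and Gal) and 3 had fallen (Scg3, Scg5 and Syt1). In that comparison 66.0% of all tested genes were called, 35.9% higher and 30.1% lower, so the count itself is near the background. After panobinostat 2 had risen (Vip and Gal) and 1 had fallen (Scg5), against 42.4% of all genes called (25.5% higher and 16.9% lower). The median log2 change of the 9 members was 0.32 after CBL0137, 0.23 after panobinostat and 0.67 after the combination, beside -0.01, 0.10 and 0.08 over all tested genes. The combination median is the value of Chga, which was 0.07 without combination replicate 2. The comparisons with vehicle share its libraries. Libraries that did not overlap with vehicle were found for 3 members after CBL0137, all higher (Npy, Vip and Chga; 18.6% of all genes). For panobinostat they were 5 higher (Npy, Vip, Gal, Chga and Scg2; 37.1%) and 2 lower (Scg3 and Scg5; 27.8%), and for the combination 4 higher (Npy, Vip, Gal and Scg2; 38.4%) and 2 lower (Scg3 and Scg5; 32.4%).

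Compared with CBL0137 alone, the combination had higher Gal (2.15 ± 0.40) and lower Scg3 (-1.17 ± 0.15, limma, adjusted p = 0.000328) and Scg5 (-1.59 ± 0.16, adjusted p = 0.000262). These were 3 of 9 members, where 56.9% of all genes were called (33.2% higher and 23.7% lower). Compared with panobinostat alone, Scg3 (-0.69 ± 0.17, adjusted p = 0.035) and Scg5 (-0.67 ± 0.18, adjusted p = 0.0477) were lower, 2 of 9 members where 10.5% of all genes were called (6.24% higher and 4.3% lower). Both of the latter calls were lost without combination replicate 1 or 2, either panobinostat library, vehicle replicate 2 or 3 or CBL0137 replicate 1, and that of Scg5 also without vehicle replicate 1 or CBL0137 replicate 2 (adjusted p up to 0.204 for Scg3 and 0.232 for Scg5). Between the single drugs, Scg5 was higher and Gal lower after CBL0137 (Gal -1.79 ± 0.45, adjusted p = 0.0247), 2 of 9 members where 18.9% of all genes were called (6.81% higher and 12.1% lower). The Gal difference was lost without CBL0137 replicate 1 or 2 or either panobinostat library (adjusted p up to 0.102).

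The interaction is the combination's change minus the sum of both single-drug changes. It gave 0 calls among the 9 members and 0.0% of all tested genes in limma, and 3 members had an unadjusted p under 0.05. They were Scg5 at -0.99 (limma, adjusted p = 0.347), Scg3 at -0.77 (adjusted p = 0.372) and Vip at -1.75 (adjusted p = 0.373). A departure from additive log2 changes was thus not called for any member. For single genes, an exact 2-sided permutation over 3 and 3, or 3 and 2, libraries would reach 0.1 at best.

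Among other neuropeptide and granin precursors, 17 of 30 listed genes were tested, and after the combination 11 were called higher and 1 lower, with a median change of 0.97 (limma). Over all tested genes 35.9% were called higher and 30.1% lower, with a median of 0.08. Cck and Tac1, both among those called higher, reached 1 TPM in no library outside the combination. They were tested only because of their level there, so their calls add no support. The counts were 10 higher and 1 lower of 15 without combination replicate 2, where the filter left out both genes. Under quantile normalization the count was 4 higher and 2 lower, with a median of 0.47. Nts, the precursor of neurotensin, was 0.31, 0.69 and 1.88 TPM in vehicle and 15.2, 15.4 and 15.0 TPM in the combination. That was a rise of 3.13 ± 0.39 (adjusted p = 6.83e-05), and it also rose by 2.27 ± 0.43 after panobinostat (adjusted p = 0.00284). After CBL0137 Nts rose by 1.90 ± 0.39 (limma, adjusted p = 0.0202), a call lost without vehicle replicate 1 or 2 or CBL0137 replicate 3. Vgf, a granin-like precursor induced by neurotrophins, was 3.46, 2.49 and 2.83 TPM in vehicle and 13.4, 30.9 and 32.4 TPM in the combination, a rise of 2.67 ± 0.42 (adjusted p = 0.000298). Sct, the secretin precursor, rose by 2.81 ± 0.48 (adjusted p = 0.000486), from at most 0.95 TPM in vehicle to 5.41 TPM or more. Adcyap1, the precursor of PACAP and a relative of Vip, fell by 1.20 ± 0.37 (adjusted p = 0.0159), a call lost without vehicle replicate 1 or combination replicate 3 (adjusted p = 0.0652 and 0.0574). After panobinostat 6 of the 17 rose and 0 fell, and after CBL0137 2 rose and 0 fell, with 7 and 9 at an unadjusted p under 0.05. Over all tested genes 25.5% were called higher and 16.9% lower after panobinostat, and 4.99% and 1.13% after CBL0137. Under quantile normalization 1 was called higher after panobinostat and 0 after CBL0137. The panobinostat count was 2 with the replicate block, and also without vehicle replicate 1 or 3.

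Of 16 tested genes for enzymes and partners that cut and finish the precursors, 10 were called higher and 1 lower after the combination (median 1.01, limma), 7 higher and 0 lower after panobinostat (median 0.45), and 0 after CBL0137 (2 at an unadjusted p under 0.05). Over all tested genes the shares were 35.9% higher and 30.1% lower for the combination, and 25.5% and 16.9% for panobinostat. For CBL0137 they were 4.99% and 1.13%. The combination gave 8 higher and 1 lower of 15 (median 0.66) without its replicate 2, and 7 higher and 3 lower under quantile normalization. Panobinostat gave 5 higher and 3 lower under quantile normalization. Furin, the convertase of the constitutive pathway, was 8.13, 6.61 and 6.0 TPM in vehicle and 31.2, 32.0 and 30.3 TPM in the combination, a rise of 2.03 ± 0.18 (adjusted p = 1.32e-05). Tpst2, a tyrosine sulfotransferase of secreted proteins, rose by 1.80 ± 0.21 (adjusted p = 5.66e-05), and Pam, the enzyme that amidates peptides such as neuropeptide Y and Vip, by 0.84 (adjusted p = 0.0105). The convertases of the regulated granule itself moved apart. Pcsk2, the partner of Scg5, fell by 0.91 ± 0.28 (adjusted p = 0.0144), a call lost without combination replicate 1 or 2. Pcsk1 was at most 0.27 TPM in vehicle and 0.86, 6.02 and 1.18 TPM in the combination, a rise of 1.41 (adjusted p = 0.0133) that was not called under quantile normalization (adjusted p = 0.106). Without combination replicate 2 or 3, Pcsk1 fell under the filter on low values and was not tested. Cpe, the carboxypeptidase of the granule and the most abundant of these named enzymes, was 128 to 145 TPM in vehicle and 82.0, 247 and 115 TPM in the combination (-0.04, adjusted p = 0.916). Without combination replicate 2 it was lower (-0.49, adjusted p = 0.014). Pcsk1n, the inhibitor of Pcsk1, changed by -0.15 and did not pass.

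Of 25 tested genes of the granule membrane and of granule biogenesis, 11 were called higher and 6 lower after the combination. Over all tested genes the shares were 35.9% and 30.1%, so these counts are near the background. The list's median was 0.13 (limma), -0.15 under quantile normalization and -0.01 when structural RNA and histone genes were left out of the scaling. Among the 11 were Atp6ap1, Atp6ap2, Atp6v0a1, Atp6v1a, Atp6v1b2, Nucb2 and Resp18. Dbh, the noradrenaline-making enzyme inside the granule, rose by 1.46 ± 0.38 after the combination (adjusted p = 0.00604). It also rose by 1.69 ± 0.38 after CBL0137 (limma, adjusted p = 0.0289). That call was lost without vehicle replicate 2 or 3 or any 1 of the CBL0137 libraries. In the combination Resp18 rose by 1.95 ± 0.48 (adjusted p = 0.00489), or 1.29 without combination replicate 2. Ptprn, which encodes the granule membrane protein IA-2, rose by 1.07 (adjusted p = 0.01). Cyb561, the electron carrier that regenerates ascorbate for Dbh, was 92.2, 98.6 and 94.8 TPM in vehicle and 33.0, 48.5 and 42.1 TPM in the combination, a fall of 1.21 on the log2 scale (adjusted p = 3.94e-05). It also fell by 0.66 after panobinostat (adjusted p = 0.00664). Sv2a, a transporter-like vesicle protein, fell by 1.11 ± 0.17 (adjusted p = 0.000224) and Ica1 by 1.16 ± 0.18 (adjusted p = 0.000307). Ptprn2 fell by 0.71 (adjusted p = 0.034), a call lost without vehicle replicate 1 or 3 or combination replicate 1. After panobinostat 8 were higher and 1 lower, and after CBL0137 2 were higher and 0 lower, with 7 at an unadjusted p under 0.05. Over all tested genes 25.5% were called higher and 16.9% lower after panobinostat, and 4.99% and 1.13% after CBL0137. The combination gave 11 higher and 5 lower without its replicate 2. Panobinostat gave 6 higher and 3 lower under quantile normalization.

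Of 40 tested genes of calcium-triggered release, 19 were called lower and 7 higher after the combination (median -0.62, limma), where 30.1% of all tested genes were called lower and 35.9% higher. Sytl5 and Rab27b, both among those called higher, reached 1 TPM in no library outside the combination. They were tested only because of their level there. Without combination replicate 2 the count was 17 lower and 5 higher of 39. Cplx1, the complexin that clamps SNARE complexes, was 55.6, 55.4 and 56.4 TPM in vehicle and 13.2, 4.54 and 19.1 TPM in the combination, a fall of 2.29 ± 0.37 on the log2 scale (adjusted p = 0.000357). Sytl4, which encodes the granule-docking protein granuphilin, went from 382, 365 and 333 TPM to 107, 59.1 and 148 TPM, a fall of 1.87 ± 0.26 (adjusted p = 0.000149). Doc2a fell by 1.91 ± 0.22 (adjusted p = 5.08e-05), and Snap25, the SNARE of the plasma membrane, by 1.10 (adjusted p = 0.00789). Combination replicate 2 was the lowest of the 11 libraries for these 4 genes, while it was the highest for Chga and Npy. Rab3d, a vesicle GTPase, rose by 2.14 ± 0.17 (adjusted p = 9.81e-06) and Doc2b by 1.92 ± 0.37 (adjusted p = 0.00104). After panobinostat alone Rab3d rose by 1.77 ± 0.20 (limma, adjusted p = 0.000458) and Doc2b by 1.95 ± 0.41 (adjusted p = 0.00453). Doc2a fell by 1.15 ± 0.25 there (adjusted p = 0.00537). The Doc2a change was -0.92 without panobinostat replicate 3, a fit that leaves a single panobinostat library. Rab3d also rose by 0.72 ± 0.17 after CBL0137 (adjusted p = 0.0411). That call was lost in several fits, among them those without vehicle replicate 1, 2 or 3. Of the 40 genes, 3 were higher and 3 lower after panobinostat, where 25.5% of all tested genes were called higher and 16.9% lower. Under quantile normalization the panobinostat counts were 2 higher and 9 lower. After CBL0137 1 was higher and 0 lower, with 2 at an unadjusted p under 0.05. Over all tested genes 4.99% were called higher and 1.13% lower after CBL0137.

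**Figure D3:**
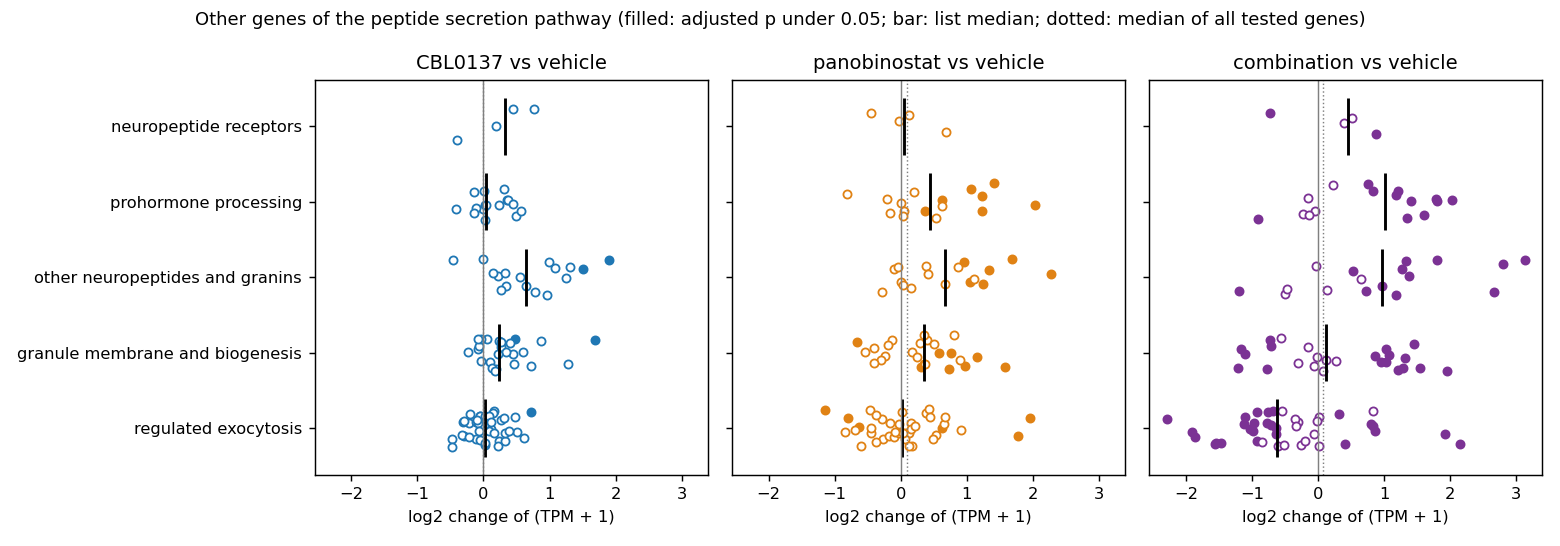
Change in log2(TPM + 1) against vehicle of every tested gene in 5 lists of the secretory pathway, after CBL0137, panobinostat and the combination. Filled points passed limma's test, the bar is the list's median and the dotted line the median of all tested genes. In the combination the medians are 0.97 for other neuropeptides and granins, 1.01 for prohormone processing and -0.62 for regulated exocytosis.

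Receptors of these peptides were scarce. Only 4 of 15 listed receptor genes passed the filter on low values. Npy1r, Galr1, Galr2 and Vipr2 were at or below 1.15 TPM in all 11 libraries, Npy2r lay between 0.61 and 3.65 TPM, and Sstr2 between 0.28 and 2.10 TPM. Adcyap1r1, the receptor of PACAP, was the most abundant called one at 38.5 TPM in vehicle and fell by 0.73 ± 0.21 after the combination (limma, adjusted p = 0.0109). Vipr1 was at most 0.13 TPM in vehicle and 0.99, 1.01 and 1.06 TPM in the combination, a rise of 0.87 (adjusted p = 0.00861) that was not called under quantile normalization (adjusted p = 0.177). After CBL0137 and after panobinostat 0 were called, with 1 at an unadjusted p under 0.05 in each. Over all tested genes 6.12% were called after CBL0137, 42.4% after panobinostat and 66.0% after the combination. The combination gave 1 higher and 1 lower without its replicate 2.

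Markers of other cells moved with treatment as well. Noradrenergic neuroblast markers summed to 918 to 1133 TPM in vehicle, 1314 to 1428 TPM after CBL0137, 782 to 999 TPM after panobinostat and 543 to 871 TPM after the combination. The 14 macrophage markers summed to 846 to 1033, 1782 to 3577, 4523 to 5715 and 6845 to 10610 TPM in the same order, and the 12 fibroblast markers to 283 to 480, 591 to 1469, 3104 to 3467 and 3859 to 5480 TPM. In RNA of whole tumours, fewer neuroblasts and less RNA of these genes per neuroblast cannot be told apart. The part of these shifts in the falls of Scg3, Scg5 and Syt1, or in the rises of the processing enzymes, was not tested. Schwann cell markers summed to 34.5 to 56.9, 26.7 to 58.6, 140 to 190 and 65.4 to 138 TPM, and T cell markers to 3.91 to 5.30, 9.47 to 60.4, 19.2 to 20.7 and 43.8 to 79.8 TPM, in the order of groups above, and their part in the rises of Vip and Gal was not tested. The 9 chromaffin markers, which include Chga, Chgb and Npy, summed to 563 to 669 TPM in vehicle and 1059 to 1406 TPM after CBL0137. Their sum was 781 to 884 TPM after panobinostat and 738, 1509 and 1274 TPM in the combination.

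**Figure D4:**
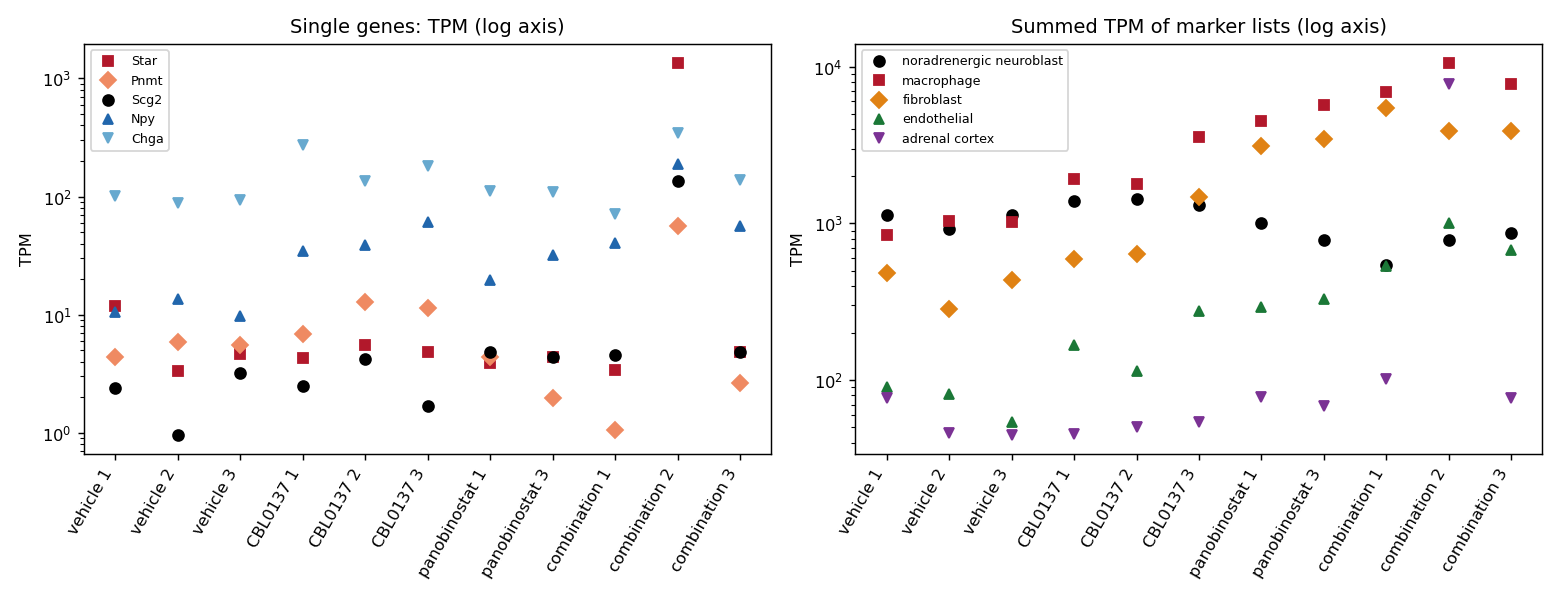
Left, TPM of Star, Pnmt, Scg2, Npy and Chga in each of the 11 libraries on a log axis. Right, summed TPM of the marker lists of neuroblasts, macrophages, fibroblasts, endothelium and adrenal cortex by library on a log axis. Combination replicate 2 carries Star at 1362 TPM and an adrenal cortex sum of 7714 TPM, against at most 102 TPM in the other libraries.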

How the data were processed

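Total RNA of flash-frozen tumours was sequenced from stranded libraries after depletion of ribosomal RNA, per the labels. The authors deposited TPM for 24411 genes. Per the submitters' processing notes they used STAR, SAMtools and RSEM with mm10, and the versions are not given in the sources used here. In 27 symbols that had become dates the gene was named by its transcript identifier. Each library sums to 1000000 TPM, so a shift in a few abundant RNAs moves every other value.

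The test covered the 15497 genes that reached 1 TPM in 2 or more libraries and left out 8914. Means of the 4 groups were fitted to log2(TPM + 1) of the 11 libraries with limma 3.58.1 (R 4.3.3; trend, 7 residual degrees of freedom). P-values are 2-sided and adjusted by Benjamini-Hochberg over all those genes, with 0.05 as threshold. A change on this scale understates that of low genes. The fit was also run on simulated data with independent normal noise, and the outcome is not given here. That setting lacks the mixed tissue of these libraries. The design text gives separate mice for the libraries. Python 3.11.15 made summaries and figures. Gene coordinates and promoters are RefSeq's on GRCm38.p6, the assembly called mm10.

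The members were given by symbol, and members and lists were chosen with earlier results of these data known. Named were the 10 members, a panel of pathway genes and receptors, up to 3 called genes each way per list (those whose higher group averaged 5 TPM or more), and the 3 genes nearest to each member by Pearson's r. Unnamed gene models and genes that averaged under 5 TPM were left out of that ranking. Each result was recomputed without each library, with a pseudocount of 0.1 or 5, unfiltered or filtered at 5 TPM, scaled by median-of-ratios, by quantiles or without structural RNA and histone genes, with a replicate block, and within the groups compared.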

Additional observations from a re-analysis of the deposited data

How the results depend on the processing

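The calls of Npy, Vip, Gal, Scg3 and Scg5 for the combination against vehicle held under all alternatives in which they were tested and without each library in turn (Vip was not tested under the filter of 5 TPM), with 6 members called and a range of 5 to 7 without single libraries. For CBL0137 against vehicle 1 member was called. It was 2 with a pseudocount of 0.1 and 0 with a pseudocount of 5, without the filter, with quantile normalization and with the replicate block, and 0 to 1 without single libraries. For panobinostat against vehicle 3 were called, 1 with quantile normalization, 5 with only the groups compared, and 1 to 4 without single libraries. For the combination against CBL0137 the 3 calls became 3 to 5 without single libraries. Against panobinostat the 2 calls became 1 with a pseudocount of 0.1, without the filter or with median-of-ratios scaling, 0 with the replicate block or only the groups compared, and 0 to 2 without single libraries. Between the single drugs the 2 calls became 1 with the replicate block, 0 with only the groups compared and 0 to 3 without single libraries. The causes were not tested.

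Directions that turned belonged to changes that had not been called. With quantile normalization Vip in the combination against CBL0137 was -0.0301 and Scg2 after CBL0137 -0.0444. Leaving out single libraries gave, for CBL0137 against vehicle, -0.411 to 0.0543 for Gal, -0.0449 to 0.507 for Scg2 and -0.163 to 0.0172 for Syt1, and for panobinostat -0.386 to 0.0897 for Syt1. For the combination against CBL0137 it gave -0.91 to 0.22 for Chga and -0.739 to 0.0628 for Chgb, and against panobinostat -0.0554 to 0.804 for Gal and -0.16 to 0.98 for Chga. Syt1 between the single drugs ran from -0.15 to 0.32. The interaction ran from -0.98 to 0.12 for Npy, -0.55 to 0.25 for Chgb and -0.24 to 2.07 for Scg2. Against vehicle the combination gave -0.397 to 0.0667 for Pcsk1n and -0.49 to 0.30 for Cpe.

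Same-numbered libraries did not deviate together (15 pairs, r from -0.26 to 0.19, 2 over 0.1), so the replicate numbers were not taken to pair the mice. The block also left the fall of Scg5 after panobinostat uncalled (limma, adjusted p = 0.059). With the replicate block the calls over all genes went from 949 to 521 for CBL0137, from 1634 to 345 for the combination against panobinostat, and from 2935 to 1249 between the single drugs. With only the groups compared the last pair of counts were 477 and 0. A pseudocount of 5 gave 547 for CBL0137, and quantile normalization gave 3327 for the combination against panobinostat. The higher share of calls moved from 59.2 to 35.4% for the combination against panobinostat when structural RNA and histone genes left the scaling, and with quantile normalization from 58.3 to 42.1% against CBL0137 and from 36.0 to 53.3% between the single drugs. Depth is unknown, and values of Vip, Sst and the receptors may rest on few reads. With 2 panobinostat libraries, a fit without one assumes that the other varies like the rest.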
